A study of Mus musculus with 6 samples.

Results

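BMP target genes were described in neonatal mouse ovaries that had been cultured for 2 h with or without platelet-rich plasma (PRP). The set was the 10 genes Id1, Id2, Id3, Id4, Smad6, Smad9, Bambi, Atoh8, Msx1 and Msx2, taken by symbol from a deposited table of 27098 genes as known responders to SMAD1 and SMAD5. The rule of choice used no measured value of theirs, but earlier results of these data were known when it was made. All 10 were in the table and passed the filter on low counts. Ovaries of mice 3 days after birth were kept in DMEM/F12 medium with antibiotics, and the PRP libraries came from ovaries given 2% PRP in that medium (3 libraries, PRP 1 to 3). The control libraries came from the same medium without PRP (3 libraries, control 1 to 3). Per the series text the plasma was human and had been activated by thrombin, and libraries from thrombin or other plasma alone were not analysed here. The labels give no strain, and they do not say whether the replicates are separate cultures, litters or animals, or how many ovaries went into each, so p-values measure only the spread between these libraries, which may be technical.

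PRP carries the growth factors that platelets store, among them ligands of the TGF-beta superfamily, to which bone morphogenetic proteins (BMPs) belong. BMPs bind pairs of type I and type II receptor kinases, which phosphorylate SMAD1, SMAD5 and SMAD9. These join SMAD4 in the nucleus and switch on ID genes, inhibitory SMADs and other targets, often within an hour or so of stimulation. In the ovary BMP signalling acts on germ cells, granulosa cells and stroma, so the ID genes are commonly read as a transcript-level gauge of the pathway.

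In the test for a difference between PRP and control 0 of the 10 BMP target genes passed, as did 0 of all 17475 genes tested. The groups overlapped in every one of the 10, and did not overlap in 9.21% of all genes. The ID genes Id1, Id2 and Id3 were the most abundant members per length and had log2 fold changes of 0.07 ± 0.19, -0.01 ± 0.09 and 0.14 ± 0.18 (SE, n = 3 per group). Bambi, a pseudoreceptor that dampens BMP and TGF-beta signalling, had the highest value of the set, 0.29 ± 0.23, and Msx2, a homeobox gene with few counts, the lowest, -0.48 ± 0.70. Most of the variation of Id1 and Id3 followed the replicate number and not the treatment. The median share of replicate number was 62.9% in the 10 members, beside 55.6% over 17330 genes and the 40% that unrelated values give.

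The libraries held 35568000 to 36568367 counts each. No pair of libraries was a duplicate, since their counts differed beyond counting noise (Poisson chi-square per degree of freedom 8.91 to 32.0). All 12 oocyte, 10 granulosa, 9 stromal fibroblast and 10 endothelial markers were detected in every library. Control 3 stood apart in erythroid and interferon-stimulated transcripts. Its 8 erythroid genes summed to 1531 CPM (counts scaled to a common library size), against 109 to 225 CPM in PRP libraries and 108 to 144 CPM in the other controls. Its 9 interferon-stimulated genes summed to 309.7 CPM, against 144 to 171 CPM in PRP libraries and 158 to 202 CPM in the other controls. That sum was lower in PRP in all 3 same-number pairs, as were 6 of the 9 single genes, beside 16.3% of all genes. The 9 surface epithelium markers summed to 866 to 928 CPM in PRP and to 760 to 841 CPM in control, with no overlap. Sums were also higher in PRP in all 3 same-number pairs for stromal fibroblast (5145 to 6415 CPM in PRP, 4793 to 6059 CPM in control), oocyte (1851 to 2661 CPM in PRP, 1730 to 2361 CPM in control) and pericyte markers (355 to 451 CPM in PRP, 311 to 447 CPM in control). Of the single markers 8 of 9 stromal, 7 of 9 surface epithelium and 7 of 12 oocyte genes lay higher in all 3 pairs, beside 16.8% of all genes. The same held for 4 of 9 pericyte, 3 of 10 endothelial and 0 of 10 granulosa genes. Lower in all 3 pairs were 2 of 10 granulosa and 1 of 10 endothelial genes, beside 16.3% of all genes. Of the stromal, surface epithelium, oocyte and pericyte genes 0 were. The part of these cell types in the values of the BMP pathway genes was not tested. In whole ovaries, fewer cells of a type and less RNA per cell cannot be told apart.

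Promoter sequence of the ID genes is shown because the ID family carries most of the counts of the set. RefSeq promoters of GRCm38.p6 matched 8 of the 10 members, without Id1 and Bambi, and the 250 bases before the start given in that table were searched on both strands. For Smad9, Atoh8 and Smad6 the table's start lies inside the gene's span, which takes up 127, 203 and 26 bases of the window. The motifs were GGCGCC, the GC-rich core of BMP response elements bound by SMAD1 and SMAD5, and GTCT, the SMAD4 box, and capitals mark them (AGAC on the opposite strand). The windows are chr12:25096093-25096342 on the minus strand for Id2, chr4:136143572-136143821 on the plus strand for Id3 and chr13:48260866-48261115 on the plus strand for Id4, each printed 5′ to 3′ toward the start site.
Id2: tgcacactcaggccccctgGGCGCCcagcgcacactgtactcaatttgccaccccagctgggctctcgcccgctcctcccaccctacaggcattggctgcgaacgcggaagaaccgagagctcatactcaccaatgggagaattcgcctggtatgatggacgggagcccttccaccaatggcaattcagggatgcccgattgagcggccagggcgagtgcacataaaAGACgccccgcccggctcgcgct
Id3: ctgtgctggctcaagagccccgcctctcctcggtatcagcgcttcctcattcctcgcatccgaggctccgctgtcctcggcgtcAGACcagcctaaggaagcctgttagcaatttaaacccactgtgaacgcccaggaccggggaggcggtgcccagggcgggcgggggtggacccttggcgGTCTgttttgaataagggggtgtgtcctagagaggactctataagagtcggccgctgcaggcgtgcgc
Id4: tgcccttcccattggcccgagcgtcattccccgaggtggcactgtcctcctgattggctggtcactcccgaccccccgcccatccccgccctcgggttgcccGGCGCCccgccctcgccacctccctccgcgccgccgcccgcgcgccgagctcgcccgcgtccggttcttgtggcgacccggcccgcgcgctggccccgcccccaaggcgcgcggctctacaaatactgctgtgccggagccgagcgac

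GGCGCC stood in 3 of the 8 windows, those of Id2, Id4 and Smad9, and in 9.59% of all 32851 promoter windows. The 8 windows had a GC content of 61.6% to 75.6%, against a median of 52.4% over all windows, and the shares were not matched for it. GTCT stood in 5 of the 8 and in 82.9% of all windows. Id3 held GTCT at 2 places and no GGCGCC. The spaced form, GGCGCC followed after 5 bases by GTCT, was in 0 of the 8 and in 0.0700% of all windows. These are matches of letters in a short window and say nothing of elements farther away.

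Per length, Id1 and Id3 were the most abundant members, with 39.3 ± 7.13 and 37.4 ± 7.28 CPM per kb of the longest coding transcript (SD over 6 libraries). Their order was not fixed, since Id1 lay above Id3 in 2 of the 6 libraries. Id2 followed with 25.4 ± 1.84 CPM per kb, below Id3 in all 6. That place rests on the transcript length used, 1969 bases for Id2 and 1278 for Id3. In plain CPM the means of Id2 were 49.7 in PRP and 50.2 in control, against 50.2 and 45.4 for Id3. The next members were Bambi (4.35 ± 1.08 CPM per kb), Smad6 (2.95 ± 0.355) and Id4 (2.46 ± 0.322). Atoh8 had 1.21 ± 0.500 CPM per kb and Msx1 0.675 ± 0.190. Smad9 (0.243 ± 0.0456 CPM per kb) and Msx2 (0.216 ± 0.129) came last and could not be ranked, each being the higher one in 3 of the 6 libraries. The ranges of neighbours also overlapped between Bambi and Smad6, Smad6 and Id4, and Atoh8 and Msx1.

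**Figure D1:**
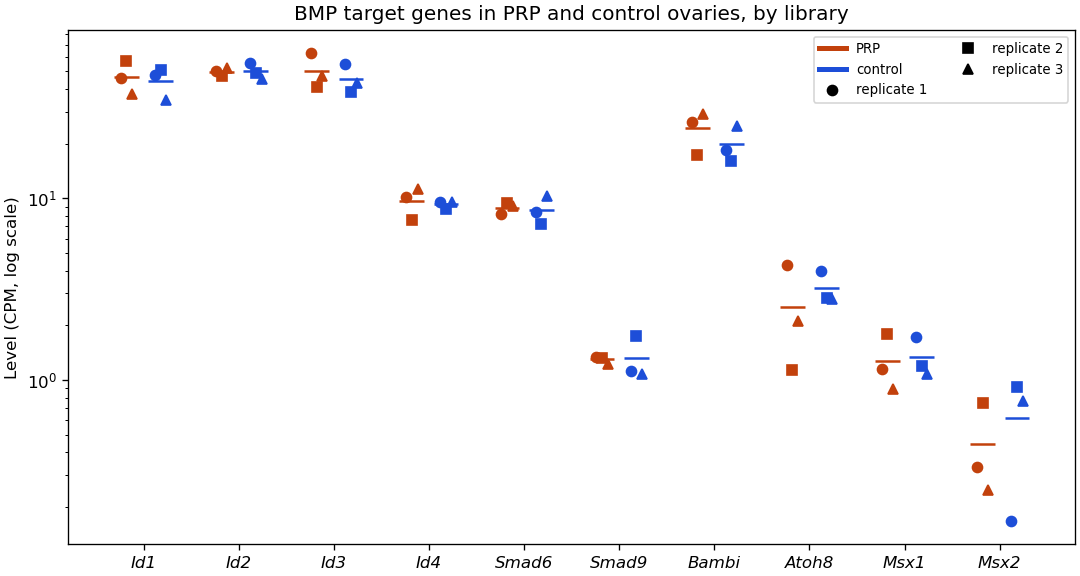
Level of each BMP target gene in CPM on a log axis, with 1 point per library (PRP left in orange, control right in blue, marker shape by replicate number) and a bar at each group mean. The groups overlap in all 10 genes, and Id1, Id2 and Id3 lie between 34.8 and 62.9 CPM while Msx2 lies below 1 CPM.

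The ID genes encode helix-loop-helix proteins without a DNA-binding region, which capture E proteins and so keep other bHLH factors off their sites. Id1 (Entrez 15901, GRCm38 chromosome 2, 152736251 to 152737410, plus strand) had 46.0, 56.8 and 37.4 CPM in PRP 1 to 3, against 47.7, 50.9 and 34.8 CPM in control 1 to 3. The highest library of each group carried number 2 and the lowest number 3, and the groups overlapped. The means were 46.7 ± 9.73 CPM in PRP and 44.5 ± 8.52 CPM in control (SD, n = 3), and the 95% interval of the fold ran from 0.778 to 1.42. Id2 (Entrez 15902, chromosome 12, 25093799 to 25096092, minus strand) had 50.1, 47.0 and 52.1 CPM in PRP, against 55.7, 49.3 and 45.6 CPM in control. It was the steadiest member, with a coefficient of variation of 7.24% over the 6 libraries, and its interval of the fold was the narrowest of the set, 0.859 to 1.14.

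Id3 (Entrez 15903, chromosome 4, 136143822 to 136145392, plus strand) had 62.9, 40.8 and 47.0 CPM in PRP, against 54.7, 38.3 and 43.3 CPM in control. Each PRP library lay above the control of its own number, by 0.20, 0.09 and 0.12 on the log2 scale, while the groups as a whole overlapped. The means were 50.2 ± 11.4 CPM in PRP and 45.4 ± 8.37 CPM in control (SD, n = 3), and the interval of the fold was 0.820 to 1.49. Id4 (Entrez 15904, chromosome 13, 48261116 to 48266028, plus strand) had 10.2, 7.58 and 11.2 CPM in PRP, against 9.58, 8.77 and 9.59 CPM in control. PRP held both its highest and its lowest library, and the interval of the fold was 0.790 to 1.36. An antisense RNA gene that overlaps Id4, A330033J07Rik, had 6 counts in all. Gm49291, a non-coding gene that also overlaps Id4, was not analysed here. Summed over the 4 ID genes, the level was 169, 152 and 148 CPM in PRP and 168, 147 and 133 CPM in control.

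Smad6 and Bambi restrain the pathway that induces them, Smad6 as an inhibitory SMAD and Bambi as a receptor-like protein without a kinase. Smad6 (Entrez 17130, chromosome 9, 63953076 to 64022085, minus strand) had 8.18, 9.43 and 9.05 CPM in PRP, against 8.44, 7.24 and 10.3 CPM in control. Both extremes were control libraries, and the log2 fold change was 0.04 ± 0.17 (SE), with an interval of the fold of 0.785 to 1.34. Bambi (Entrez 68010, chromosome 18, 3507011 to 3516404, plus strand) had 26.3, 17.3 and 29.3 CPM in PRP, against 18.6, 16.1 and 25.1 CPM in control. Each PRP library lay above the control of its own number, by 0.50, 0.10 and 0.22 on the log2 scale, but PRP 2 lay below controls 1 and 3. The means were 24.3 ± 6.24 CPM in PRP and 19.9 ± 4.64 CPM in control (SD, n = 3), and the interval of the fold was 0.848 to 1.75. A processed pseudogene, Bambi-ps1, lies on chromosome 2 and was not analysed here, so the counts of Bambi can hold reads that fit both.

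Smad9, the third SMAD that BMP receptors phosphorylate, is also a transcriptional target of the pathway. Smad9 (Entrez 55994, chromosome 3, 54755455 to 54801662, plus strand) had 1.34, 1.32 and 1.22 CPM in PRP, against 1.11, 1.75 and 1.08 CPM in control. The 3 PRP libraries lay within the spread of the controls, and the log2 fold change was -0.02 ± 0.35 (SE), with an interval of the fold of 0.572 to 1.69. Its counts ran from 38 to 63 per library, so that counting alone gives a coefficient of variation of 14.6%, against 20.9% observed within groups.

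Atoh8, Msx1 and Msx2 encode transcription factors, a bHLH protein and a pair of homeobox proteins. Atoh8 (Entrez 71093, chromosome 6, 72206174 to 72235780, minus strand) had 4.31, 1.13 and 2.10 CPM in PRP, against 3.98, 2.81 and 2.78 CPM in control. PRP held its highest library and its 2 lowest, a spread of 3.81-fold from the highest library to the lowest, and the log2 fold change was -0.34 ± 0.44 (SE). Msx1 (Entrez 17701, chromosome 5, 37820491 to 37824585, minus strand) had 1.15, 1.79 and 0.886 CPM in PRP, against 1.73, 1.20 and 1.08 CPM in control. PRP again held both extremes, and the log2 fold change was -0.06 ± 0.39 (SE). Msx2 (Entrez 17702, chromosome 13, 53466881 to 53472780, minus strand) rested on 12, 27 and 9 counts in PRP, against 6, 33 and 27 counts in control. Its interval of the fold, 0.241 to 2.12, allows a change of over 2-fold either way. The spread within groups was 63.9%, where counting alone gives 22.9%. The whole span of Msx2 lies within a non-coding gene, Gm33763, that has 8 counts in all. Msx1 and Atoh8 overlap the non-coding genes Msx1os and Gm52906, which were not analysed here.

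In the comparison of PRP with control, 0 of the 10 members passed edgeR's quasi-likelihood test at an adjusted p of 0.05, and 0 of 17475 genes did (0% of the genes tested). At an unadjusted p of 0.05 edgeR gave 0 members and 3.19% of all genes, and DESeq2 and limma-voom also gave 0 members at that level. Of the members 5 had a log2 fold change above 0, as had 50.4% of all genes, with a median of 0.013, beside 0.0013 over all genes tested. The groups did not overlap in 0 members and in 9.21% of all genes. The replicate numbers paired the libraries by the correlation of their deviations. In a fit with the number as a block 21 genes passed (0.12% of those tested) and 0 members did. Of the cell type markers, 2 of 12 oocyte and 1 of 9 surface epithelium genes passed in that fit, all higher in PRP.

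With the block, the interval of Bambi lay above 0, at 0.06 to 0.49 on the log2 scale, without passing over all genes (edgeR adjusted p = 0.292). That made 1 of the 10 members with an unadjusted p under 0.05 in the blocked fit, where 11.2% of all genes were at that level. The blocked interval of Id3 was -0.0010 to 0.28 (edgeR adjusted p = 0.447). These 2 genes were also the members that lay higher in PRP in all 3 same-number pairs, beside 16.8% of all genes, and 0 members lay lower in all 3, beside 16.3% of all genes. Sums of stromal, oocyte, pericyte and surface epithelium markers were higher in PRP in the same 3 pairs, and their part in the values of Bambi and Id3 was not tested.

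**Figure D2:**
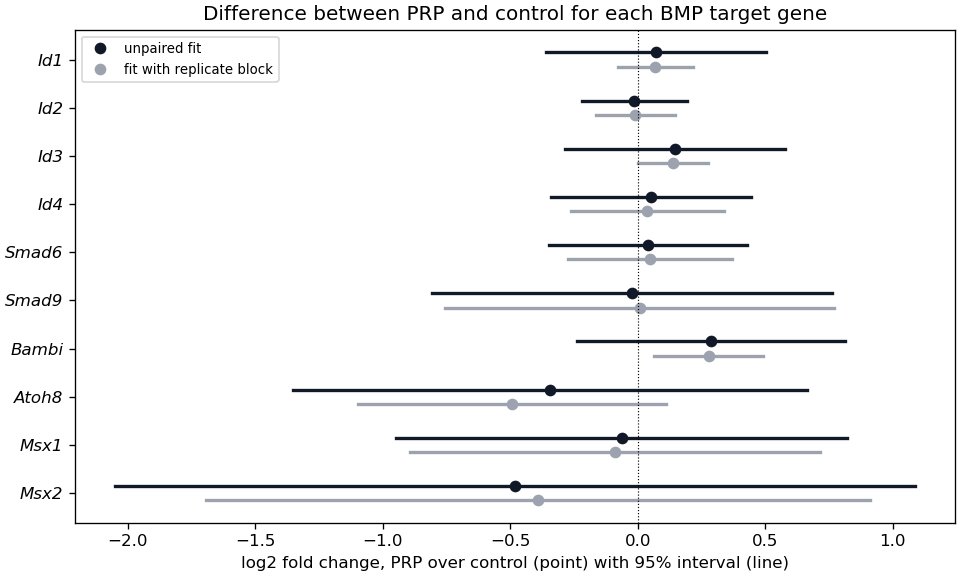
Log2 fold change of PRP over control for each BMP target gene (x axis), as a point with its 95% interval, from the unpaired fit (black) and the fit with replicate number as a block (grey). All 10 unpaired intervals span 0, and the blocked interval of Bambi, 0.06 to 0.49, does not.

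Replicate number ordered several members in the same way in both groups. It accounted for 94.8% of the variance of log2 level in Id1, 91.3% in Id3, 76.0% in Bambi and 72.2% in Id4. Id2 and Smad6 followed it least, with 39.9% and 41.3%, close to the 40% that unrelated values give. The median of the 10 members was 62.9%, beside 55.6% over 17330 genes with a mean of at least 10 counts and no library at 0. The treatment took a median of 2.27% in the members and 11.3% in those genes, where unrelated values give 20%. In Id1, Id3, Id4 and Bambi the same numbers were highest and lowest in PRP and in control, 4 of the 10 members against 30.3% of those genes. Controls 1 and 3 were nearly tied for Id4, at 9.58 and 9.59 CPM, so its place among these 4 rests on a near tie.

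The order differed from member to member. Number 1 was highest for Id3 and Atoh8, number 2 for Id1 and Msx2, and number 3 for Id4 and Bambi, in both groups. For Id4 in control, number 3 was nearly tied with number 1. The ratio of Id1 to Id3 was accordingly 0.732, 1.39 and 0.795 in PRP 1 to 3 and 0.873, 1.33 and 0.804 in control 1 to 3. Numbers 2 thus stood apart from the others in both groups by more than PRP stood apart from control. For Id1 the spread within groups was 20.1%, where counting alone gives 2.47%, so the differences between replicates exceeded counting error.

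**Figure D3:**
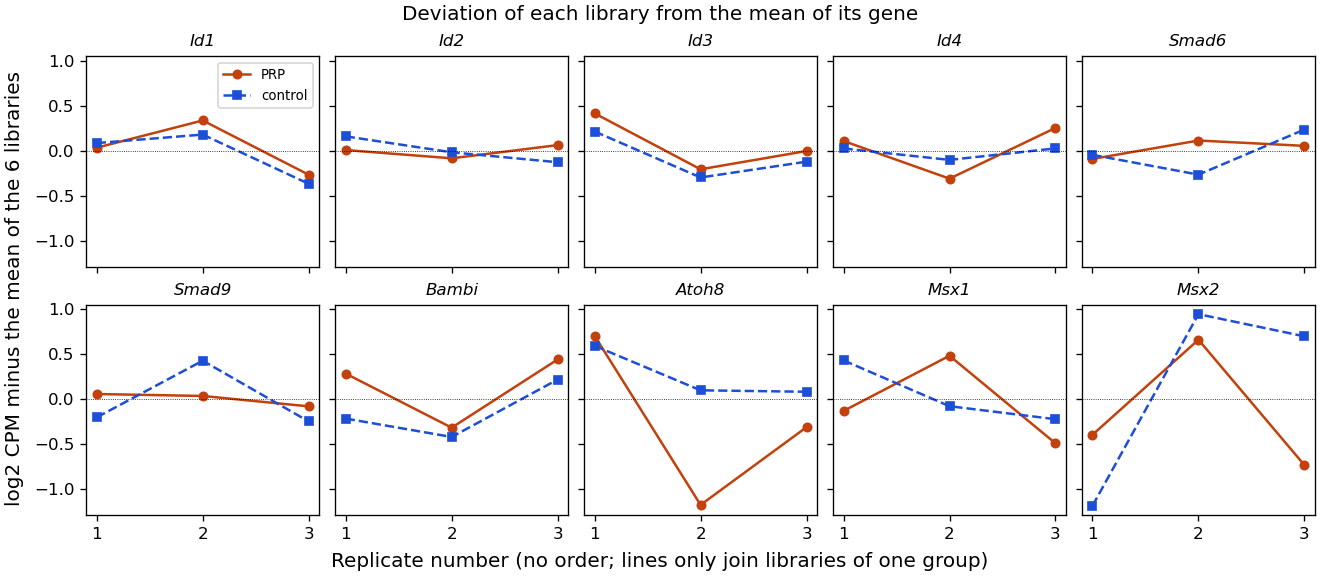
Deviation of each library from the mean of the 6 libraries (y axis, log2 CPM) by replicate number, 1 panel per BMP target gene, with PRP as orange circles and control as blue squares. In Id1, Id3, Id4 and Bambi both groups have their highest and lowest library at the same numbers, while those of Smad6 stand at different numbers. Controls 1 and 3 of Id4 are nearly tied.

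By a likeness rule, the 3 genes closest to Id1 in centred log2 CPM over the 6 libraries were Etfa, which encodes a subunit of the mitochondrial electron transfer flavoprotein (root mean square difference 0.044), Cdk5rap1 (0.045) and Ascc2 (0.053). The other members ranked far behind, the nearest being Smad9 at 0.22 (place 2860 of the genes tested) and Msx1 at 0.23 (place 3321). Id3 lay at 0.37 (place 11542). The measure also grows with counting noise. Smad9 and Msx1 have a mean of 47 counts, where counting alone gives a coefficient of variation of 14.6%. Their places therefore do not show whether they move with Id1. Etfa, Cdk5rap1 and Ascc2 are the smallest differences among all genes tested, over only 6 libraries.

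Leaving out control 3 did not let any member pass. Without it the log2 fold changes were -0.08 for Id1, -0.08 for Id2, 0.11 for Id3, 0.07 for Id4, 0.18 for Smad6 and 0.49 for Bambi. They were -0.15 for Smad9, -0.43 for Atoh8, -0.19 for Msx1 and -0.30 for Msx2.

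Of 16 listed ligands of the BMP family 10 could be tested, and 0 passed in either fit. Of these 8 had a log2 fold change above 0, beside 50.4% of all genes, and the median was 0.22, beside 0.0013 over all genes. Gdf9 and Bmp15 are also oocyte markers, whose sum was higher in PRP in all 3 same-number pairs. Amh is also a granulosa marker, whose sum was higher in PRP in 2 of the 3 pairs. The part of these cell types in the ligand list was not tested. Bmp5 had 2.52, 2.21 and 3.85 CPM in PRP, against 1.76, 1.28 and 2.18 CPM in control. Its groups did not overlap, which held for 1 of the 10 ligands and 9.21% of all genes, and its log2 fold change of 0.72 ± 0.33 (SE) did not pass (edgeR adjusted p = 1.00 unpaired). Bmp6, a ligand made by oocytes and other cells, had 41.9, 37.3 and 36.1 CPM in PRP, against 33.7, 37.6 and 36.8 CPM in control. The oocyte ligand genes Gdf9 and Bmp15, named after their values were seen, had log2 fold changes of 0.10 ± 0.14 and 0.20 ± 0.28 (SE).

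BMP receptors and co-receptors were split, with 5 of 11 tested genes above 0, a median of -0.0088 and 0 passing in either fit. Bmpr2, the type II receptor of BMPs, had 211.5, 219 and 247 CPM in PRP, against 273, 229.7 and 284 CPM in control. It lay lower in every same-number pair, with a log2 fold change of -0.22 ± 0.09 (SE), and did not pass (edgeR adjusted p = 1.00 unpaired and 0.153 with the block). Acvr2b, an activin and BMP type II receptor, had 50.9, 54.1 and 50.8 CPM in PRP, against 57.8, 60.7 and 54.9 CPM in control. The groups did not overlap, which held for 1 of the 11 receptors and 9.21% of all genes. Its log2 fold change was -0.16 ± 0.07 (SE), and it did not pass either (blocked edgeR adjusted p = 0.345).

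Among 14 SMAD transducers and regulators 8 lay above 0, with a median of 0.031, and 0 passed in either fit. Smad7, the inhibitory SMAD induced by both branches of the superfamily, had 38.2, 30.4 and 33.4 CPM in PRP, against 28.2, 24.4 and 31.8 CPM in control. Its log2 fold change of 0.27 ± 0.13 (SE) stands beside 0.04 ± 0.17 for Smad6, and the difference between the 2 genes was not tested. Smad7 lay higher in every same-number pair. Its blocked interval was 0.09 to 0.46 on the log2 scale, and it did not pass (blocked edgeR adjusted p = 0.226). Skil, a SMAD co-repressor, had 67.1, 56.0 and 71.7 CPM in PRP, against 82.3, 64.9 and 93.5 CPM in control. Skil lay lower in every same-number pair, with a log2 fold change of -0.30 ± 0.14 (SE) and a blocked edgeR adjusted p of 0.0624. Of the 3 E protein genes, whose products ID proteins bind, 1 lay above 0 and 0 passed in either fit, with Tcf3 at 0.08 ± 0.06 and Tcf4 at -0.02 ± 0.08 (SE).

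Of 16 BMP antagonists 14 could be tested, 9 lay above 0, the median was 0.11 and 0 passed in either fit. Nbl1, a secreted BMP binder of the DAN family, had 90.5, 82.3 and 87.4 CPM in PRP, against 84.6, 65.5 and 73.3 CPM in control. Its log2 fold change was 0.22 ± 0.09 (SE; blocked edgeR adjusted p = 0.153). Crim1, a membrane protein that tethers BMPs, had one of -0.14 ± 0.12 (SE).

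A further list of bHLH, homeobox, T-box and GATA genes that respond to BMPs in other tissues had 13 of 16 members tested, 9 above 0 and a median of 0.042. Tbx2, a T-box repressor, had 98.3, 68.3 and 77.9 CPM in PRP, against 72.0, 53.3 and 62.4 CPM in control. It had no call in the unpaired fit (log2 fold change 0.38 ± 0.15 SE, edgeR adjusted p = 1.00). With the block Tbx2 rose by 0.38 (edgeR adjusted p = 0.018), and that call was lost without replicate 1 (adjusted p = 0.180) or replicate 2 (adjusted p = 0.146). The part of the stromal, oocyte, pericyte and surface epithelium markers, whose sums moved the same way in each pair, was not tested. No other gene of that list passed in either fit.

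Targets of the sister branch, SMAD2 and SMAD3 downstream of TGF-beta, had 12 of 14 tested members above 0 and a median of 0.086, beside 5 of 10 and 0.013 for the BMP targets. Smad7, Skil and Ski stand in both this list and the list of SMAD regulators. The one call was Junb, an immediate early gene, which had 137, 79.0 and 121 CPM in PRP, against 108, 64.1 and 103 CPM in control. It passed with the block (0.29 on the log2 scale, edgeR adjusted p = 0.0408), lost that call without any one replicate number (adjusted p = 0.0778 to 0.271), and did not pass unpaired. Col1a1 and Postn of this list are also stromal fibroblast markers, whose sum was higher in PRP in all 3 pairs, and the part of that shift in the list and in Junb was not tested. No test set the 2 lists against each other.

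**Figure D4:**
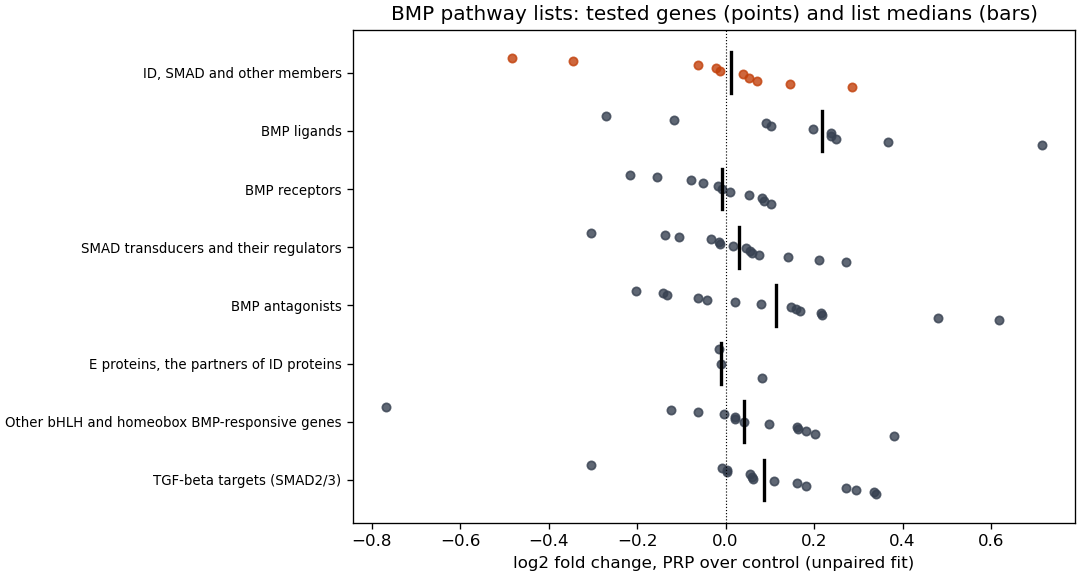
Unpaired log2 fold change of PRP over control (x axis) for every tested gene of the BMP target set (orange) and of 7 lists of pathway and comparison genes (grey), with black bars at the list medians. The BMP targets centre on 0.013, and Bmp5 is the rightmost ligand at 0.72.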

How the data were processed

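The 6 mRNA libraries were built with a SMARTER kit, per the labels' protocols. The authors deposited 1 table of unnormalised counts by gene symbol and Entrez identifier, on build GRCm38 (mm10) per the submitters' processing notes. The sources used here do not give the aligner, counter, strand setting or annotation, so overlapping and antisense genes cannot be told apart. Columns were matched to samples by title. The column of PRP 3 has its letters in another order, and was assigned to PRP 3 since all other titles match a column exactly.

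PRP was tested against control by edgeR 4.0.16 (R 4.3.3; filterByExpr, TMM, robust quasi-likelihood F test, two-sided, Benjamini-Hochberg over 17475 genes). Each SE is the log2 fold change divided by the root of F, with 95% intervals. CPM uses TMM library sizes. DESeq2 1.42.0, limma-voom (limma 3.58.1), RLE scaling, other filters and leaving out libraries were alternatives. Both fits were also run on simulated counts that had the spread of the blocked fit and no effect of replicate number. That run therefore does not show how the unpaired fit performs on libraries that differ by replicate number.

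Both groups carry the numbers 1 to 3. Deviations of same-number libraries from their group means had correlations of 0.24, 0.40 and 0.33, and those of all other pairs were below 0. Deviations sum to 0 within a group, so values above 0 for same numbers push the others below 0. The negative values are thus no separate evidence of pairing. The numbers were taken as pairs, from the data and not from a label, and a fit with a replicate block was run.

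The members and lists were chosen with earlier results of these data known. All members are named. Of each other list, genes past the threshold in either fit are named, otherwise the 2 with the smallest unpaired p. Coordinates are RefSeq (GRCm38.p6) by Entrez identifier, and gene strands and transcript lengths are GENCODE M21, of the same build. Overlapping genes were taken from both, and those named for Msx1, Msx2 and Atoh8 are from RefSeq.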

Additional observations from a re-analysis of the deposited data

How the results depend on the processing

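No BMP target gene passed under any of the 16 alternatives run, of which 1, the block in limma-voom, was chosen after seeing the data. Msx2 did not pass the stricter filter on low counts and has no value there. Of 159 values of the members under these alternatives, 135 kept their direction and 24 changed it, in 9 of the 10 members, all of them uncalled. Bambi kept a positive log2 fold change in all 16, from 0.13 to 0.49 with 1 library left out. The count of genes past the threshold stayed at 0 without any 1 library. With the replicate block it was 21 in edgeR and 26 in limma-voom, and in edgeR it was 3 without replicate 1, 1 without replicate 2 and 19 without replicate 3. The block moved no member past the threshold, and Smad9 changed sign under it (0.0072) and in limma-voom (0.012).

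With 1 library left out, log2 fold changes ran from -0.093 to 0.21 for Id1, -0.077 to 0.066 for Id2, -0.048 to 0.30 for Id3, -0.070 to 0.20 for Id4 and -0.072 to 0.18 for Smad6. They ran from -0.15 to 0.24 for Smad9, -0.98 to 0.0068 for Atoh8, -0.39 to 0.16 for Msx1, -1.08 to -0.077 for Msx2 and -0.056 to 0.055 for Tcf4. With the block, the values that changed sign were 0.060 for Id2, 0.16 for Msx1, -0.023 for Bmp6 and 0.038 for Tcf4 without replicate 1. Without replicate 2 they were 0.018 for Id2, -0.11 for Smad6 and 0.22 for Smad9, and without replicate 3 they were -0.060 for Id4, 0.0017 for Msx1 and 0.21 for Msx2. The cause of these changes was not tested. The spread within groups was above the value that counting alone gives in all 10 members, from 1.44 times for Smad9 to 8.66 times for Id3. For Smad9 it rests mainly on control 2, with 63 counts against 40 and 38 in controls 1 and 3. Its PRP libraries had 49, 48 and 44 counts. Whether so small an excess goes beyond counting noise was not tested.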
